A study of Mus musculus with 3 samples.

Results

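Autophagy is the process by which cells enclose cytoplasm, protein aggregates or organelles in a double membrane, the autophagosome, and deliver them to the lysosome for breakdown. A kinase complex around ULK1 starts the process, a lipid kinase complex around PIK3C3 and Beclin 1 marks the membrane with a phospholipid, and ATG2, ATG9 and WIPI proteins supply and shape it. A conjugation system then attaches ATG8 proteins (the LC3 and GABARAP families) to the membrane, where cargo receptors such as p62 (Sqstm1) and optineurin bind them. In motor neurons the pathway is known for clearing protein aggregates, and mutations in its receptors occur in amyotrophic lateral sclerosis.

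The 33 genes described here are members of this machinery, its receptors and the MiT/TFE transcription factors that drive lysosome and autophagy genes. They were chosen by name from 22976 genes in the deposited count table, and all 33 were listed and passed the filter on low counts. They comprised 4 cargo receptors, 5 ATG8 genes, 5 genes of the ULK complex, 5 of the PIK3C3 complexes, 5 of membrane supply, 6 of conjugation and 3 transcription factors. NSC-34 is a mouse line that combines neuroblastoma with embryonic spinal cord and is used as a motor neuron model. The study sequenced messenger RNA of 3 libraries: 1 of untreated wild-type NSC-34 cells, called the control, and 2 of clones of the same line that became resistant to PR20 spontaneously, called clone 1 and clone 2. PR20 is a proline-arginine repeat peptide of the kind translated from the expanded C9ORF72 repeat, and the clones' treatment was 10 µM for 3 weeks. Each library stood for 1 culture or clone, and the sources used here do not give the culture time of the control. The control is taken as untreated from its treatment label, which says none, although the protocol field that it shares with the clones names PR20. Every fold change rests on that reading of 1 library.

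The libraries held between 11307034 and 11700755 gene counts. With 1 control, the error of every comparison came from the difference between the clones, moderated across genes. Nothing in the labels describes further cultures. The p-values thus take the control to vary as the clones do, and they do not measure the spread between untreated cultures. The label as a motor neuron line was checked against markers. Of 7 cholinergic and motor neuron markers, Chat had 7 reads in the control and 0 in either clone, Slc5a7 was not listed, and Mnx1 and Lhx3 had at most 3 reads in any library. The other 3 were detected in the control and fell: Ache, the acetylcholinesterase gene, from 554 reads to 231 and 209, Slc18a3, the vesicular acetylcholine transporter gene, from 113 to 3 and 1, and Isl1, a motor neuron transcription factor gene, from 72 to 23 and 17. The summed level of the cholinergic and motor neuron list was 62.2 CPM (reads as a rate of the library's total, scaled by TMM factors) in the control, 23.0 in clone 1 and 20.7 in clone 2, of which Ache made up 46.1, 20.6 and 18.8 CPM. The summed pan-neuronal markers stood at 1237, 288 and 278 CPM, and of these 8 markers 1 had no reads in the control and 2 had none in either clone. Fibroblast markers summed to 102, 97.7 and 129 CPM with reads for all 8 in each library, of which Pdgfra made up 51.7, 43.0 and 45.3 CPM. At an edgeR adjusted p under 0.05, Pdgfrb and Col3a1 rose and Pdgfra and Thy1 fell, while Col1a1, Col1a2 and Dcn did not pass. Endothelial markers summed to 31.96, 15.7 and 17.6 CPM with reads for all 4. Astrocyte, oligodendrocyte, macrophage and melanocyte markers summed to at most 6.95 CPM in any library. Whether the change of neuronal markers bears on the autophagy genes was not tested. In bulk RNA, fewer cells with a transcript and less of it per cell cannot be told apart.

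Promoter sequences are shown for 4 genes. Gabarapl2 fell most, and Sqstm1 was the most abundant member and one that rose. Atg5 and Atg3 are conjugation genes that fell and whose windows hold an E-box. Each is the stretch before the transcription start, 5′ to 3′ on the gene's strand, from RefSeq on GRCm38.p6, without bases that Gencode places inside the gene. Capitals mark GC boxes (GGGCGG on either strand) in the first pair and E-boxes (CACGTG, the letters read by basic helix-loop-helix factors that include TFEB) in the second pair.
Gabarapl2, chr8:111940453-111940702, plus strand: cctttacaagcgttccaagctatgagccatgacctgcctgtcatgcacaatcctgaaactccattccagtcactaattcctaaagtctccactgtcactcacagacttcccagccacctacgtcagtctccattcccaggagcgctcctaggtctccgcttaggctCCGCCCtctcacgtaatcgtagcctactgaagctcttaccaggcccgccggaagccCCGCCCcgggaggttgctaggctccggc
Sqstm1, chr11:50210828-50211070, minus strand: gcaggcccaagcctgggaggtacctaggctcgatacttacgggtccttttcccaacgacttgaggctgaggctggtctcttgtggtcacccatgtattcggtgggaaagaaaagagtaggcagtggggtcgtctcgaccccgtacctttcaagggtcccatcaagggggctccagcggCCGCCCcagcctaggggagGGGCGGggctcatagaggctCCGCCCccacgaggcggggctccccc
Atg5, chr10:44268089-44268338, plus strand: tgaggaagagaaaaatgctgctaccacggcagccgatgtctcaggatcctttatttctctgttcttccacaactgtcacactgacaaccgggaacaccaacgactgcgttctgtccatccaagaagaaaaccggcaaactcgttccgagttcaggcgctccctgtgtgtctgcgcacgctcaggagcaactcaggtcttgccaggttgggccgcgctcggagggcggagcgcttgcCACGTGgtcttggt
Atg3, chr16:45158579-45158784, plus strand: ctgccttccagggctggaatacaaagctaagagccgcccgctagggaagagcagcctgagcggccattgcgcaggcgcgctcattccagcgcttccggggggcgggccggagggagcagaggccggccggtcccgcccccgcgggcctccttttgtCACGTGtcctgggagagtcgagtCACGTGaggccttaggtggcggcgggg

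Of the 33 genes, 27 had a RefSeq promoter, with 34 start sites among them. Motifs were searched on both strands in the 250 bases before each start. The E-box occurred in 3 of the 34 windows (8.82%), those of Atg3, Atg5 and Atg7, and in 6.02% of all 32851 windows. The longer CLEAR core TCACGTGA, which contains the E-box and is bound by TFEB, occurred in 1 window (2.94%), that of Atg3, and in 0.785% of all windows. The full CLEAR element, the core with 1 more base on each side, was in 0 of the 34 and in 0.24% of all. Antioxidant response letters (TGACNNNGC) occurred in 4 member windows (11.8%) and 10.2% of all windows, GC boxes in 20 (58.8%) and 32.7%, and CCAAT in 10 (29.4%) and 33.8%. The cAMP response element TGACGTCA was found in 1 window (2.94%), that of a Mitf start, against 1.55% of all windows. The ATF4-type element TGATGCAA was in 0 of 34 and in 0.791% of all.

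The main comparison asked how the autophagy genes of PR20-resistant clones differed from those of untreated cells. Of the 33 genes, 11 fell and 4 rose at an edgeR adjusted p under 0.05, and 18 did not pass. The fall was strongest in the ATG8 genes, of which 4 of 5 fell, led by Gabarapl2 at about 0.484 times its control level. Rises were seen for the receptor gene Sqstm1 (1.29-fold) and for Uvrag (1.32-fold) and Pik3c3 (1.19-fold) of the lipid kinase complexes. The initiating kinase gene Ulk1 rose as well (1.23-fold). With DESeq2 on the same counts, Ulk1 (DESeq2 adjusted p = 0.27) and Pik3c3 (DESeq2 adjusted p = 0.355) did not pass. Among the genes that fell, the ATG8 genes Map1lc3a (DESeq2 adjusted p = 0.13) and Gabarapl1 (DESeq2 adjusted p = 0.385) did not pass with it either. Nor did Atg101, Atg9a, Wipi2 and Atg3. The share of members called, 45.5%, lay near the 50.1% called among all 13705 tested genes. By direction, 33.3% of the members fell against 25.8% of all genes, and 12.1% rose against 24.3%. The median log2 fold change of the members was -0.10, and that of all tested genes was 0.002.

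**Figure D1:**
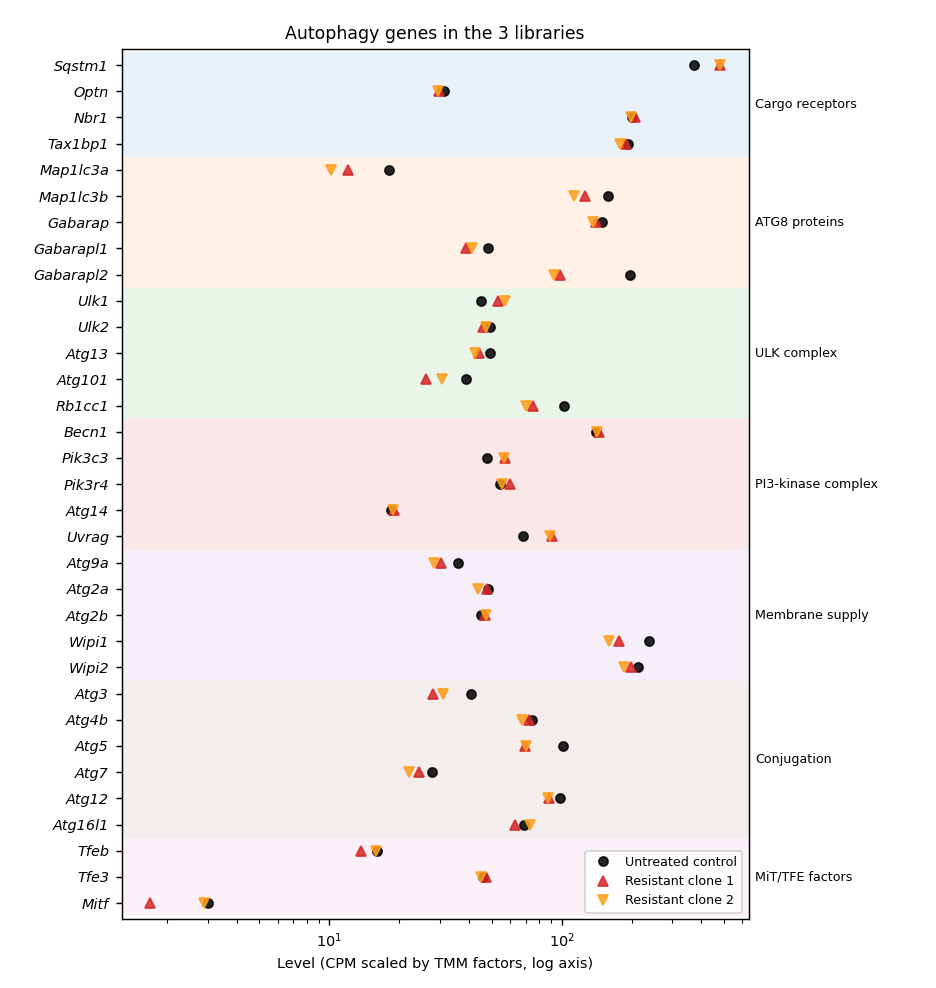
Level of each of the 33 genes (rows, grouped by role) in the control (circles) and in clones 1 and 2 (triangles), in CPM scaled by TMM factors on a log axis. The clone symbols lie close together for most genes, and Gabarapl2 shows the widest gap to the control, at 198 CPM against 98.6 and 92.9 CPM.

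The changes were small. Of the 15 called members, 13 changed by less than 1.5-fold, 2 (Map1lc3a and Gabarapl2) by at least that, and 1 (Gabarapl2) by at least 2-fold. Of all tested genes, 22.4% and 11.6% were called past those folds. Among called members the median absolute log2 fold change was 0.41, and among all called genes it was 0.53. Both clones lay on one side of the control for 30 of the 33 members, including all 15 called, and for 88.5% of all tested genes. The other 3 were Nbr1, Atg16l1 and Tfe3.

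**Figure D2:**
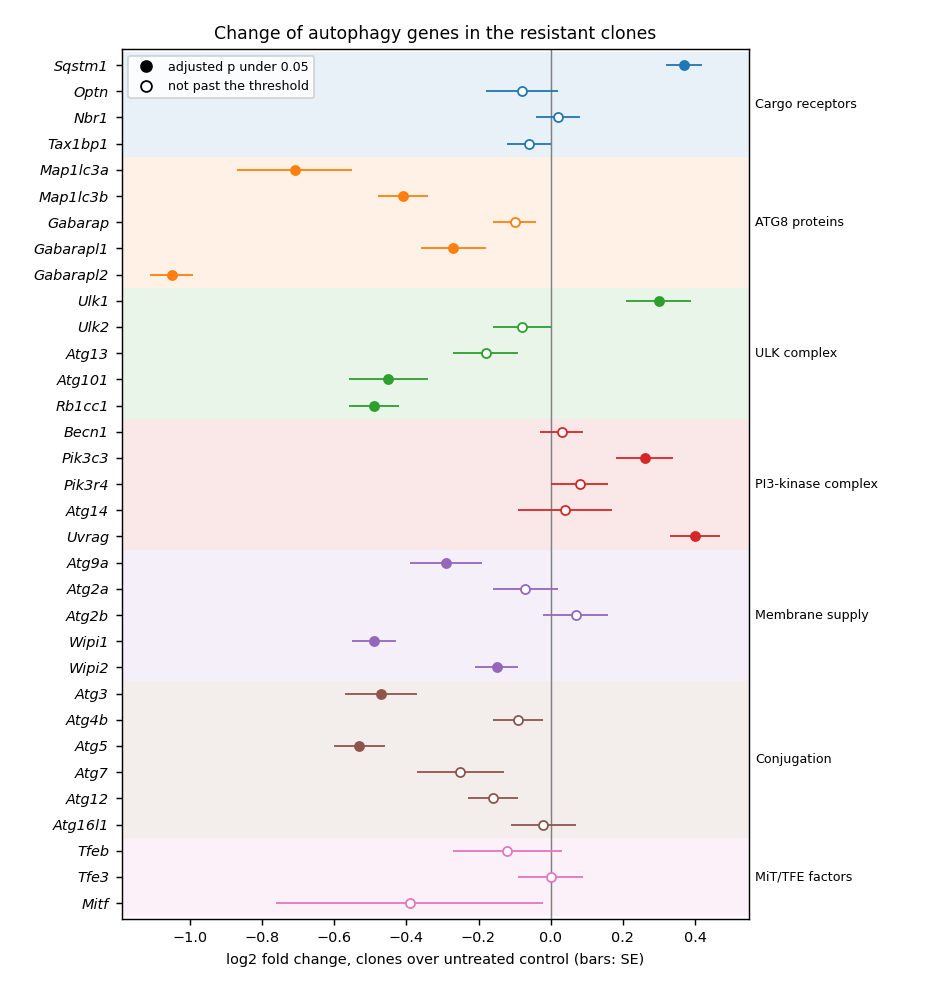
Log2 fold change of the clones over the control for each gene (rows, grouped by role), with bars for the standard error of the edgeR fit. Filled symbols passed an adjusted p of 0.05. Filled symbols lie left of 0 for 4 of 5 ATG8 genes, and the 4 right of 0 are Sqstm1, Ulk1, Pik3c3 and Uvrag.

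Among the cargo receptors, Sqstm1 rose. It encodes p62, which binds ubiquitin and ATG8 proteins and is itself degraded by autophagy. The gene lies on chromosome 11 (50199366 to 50210827, minus strand) and stood at 373 CPM in the control, 481 in clone 1 and 482 in clone 2. Both clones were above the control and differed from each other by far less than from it. The log2 fold change was 0.37 ± 0.05 (SE; edgeR adjusted p = 1.57e-05). The other receptors kept close to the control. Nbr1, a p62-related receptor, had 200 CPM in the control, 206 in clone 1 and 199 in clone 2. Tax1bp1, a ubiquitin-binding receptor, had 192, 189 and 179 CPM in the same order (edgeR adjusted p = 0.391). Optn, the optineurin gene linked to amyotrophic lateral sclerosis, had 31.3 CPM in the control and 29.7 and 29.5 in the clones (log2 fold change -0.08 ± 0.10, edgeR adjusted p = 0.538). The ratio of Sqstm1 to Nbr1 reads within a library went from 1.86 (95% interval 1.77 to 1.96, counting error only) in the control to 2.33 (2.22 to 2.45) in clone 1 and 2.42 (2.31 to 2.55) in clone 2, intervals that do not overlap that of the control. An exon of Sqstm1 overlaps the opposite-strand gene Mrnip. Exons of 11 members overlap a gene on the other strand, among them Map1lc3b (Zcchc14), Becn1 (Cntd1) and Atg2b (Gskip). Since no source used here states how strand was treated, reads in such overlaps may be left out or credited to the wrong gene.

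Of the 5 ATG8 genes, 4 fell (80%, against 25.8% of all tested genes) and 0 rose. Gabarapl2 encodes GATE-16, a GABARAP-family protein, and lies on chromosome 8 (111940703 to 111953612, plus strand). It stood at 198 CPM in the control, 98.6 in clone 1 and 92.9 in clone 2, so that both clones were near a level of 0.484 times the control. Its log2 fold change was -1.05 ± 0.06 (SE; edgeR adjusted p = 9.53e-10). Map1lc3b, the LC3B gene (chromosome 8, 121590361 to 121598760), stood at 158 CPM in the control and 126 and 113 in the clones (log2 fold change -0.41 ± 0.07, edgeR adjusted p = 0.000103). The clones were both below the control but differed from each other beyond counting error, with a ratio of 0.90 (0.83 to 0.97). Map1lc3a, which encodes LC3A, was low, at 18.1, 12.0 and 10.2 CPM, and fell by 0.71 on the log2 scale (edgeR adjusted p = 0.00139). Gabarapl1 fell from 48.3 CPM to 38.8 and 41.3 CPM, a smaller change (log2 fold change -0.27, edgeR adjusted p = 0.0188). Gabarap, the founding member of its family, had 149 CPM in the control and 141 and 137 CPM in the clones and did not pass (log2 fold change -0.10 ± 0.06, edgeR adjusted p = 0.183).

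The change was thus unequal within the GABARAP family. In the control Gabarapl2 had 1.33 reads per Gabarap read (1.25 to 1.42), but 0.70 (0.65 to 0.75) in clone 1 and 0.68 (0.63 to 0.74) in clone 2. Reads of the 5 ATG8 genes together came to 571 CPM in the control, 416 in clone 1 and 394 in clone 2. Per kilobase of the principal transcript, Gabarapl2 made up 35.4% of the family in the control and 24.0% and 23.8% in the clones. The share of Gabarap went from 33.01% to 42.6% and 43.4%, while Map1lc3b held 18.8%, 20.3% and 19.2%. Near-identical processed pseudogenes (at least 95% identity over at least 300 bases of transcript) exist for Gabarapl2 and Map1lc3b. The 3 of Gabarapl2 held 13 reads or fewer each, in any library, and the 4 of Map1lc3b 7 or fewer. STAR's gene counting leaves out reads that map to several places, so reads shared with such copies are missing from both.

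**Figure D3:**
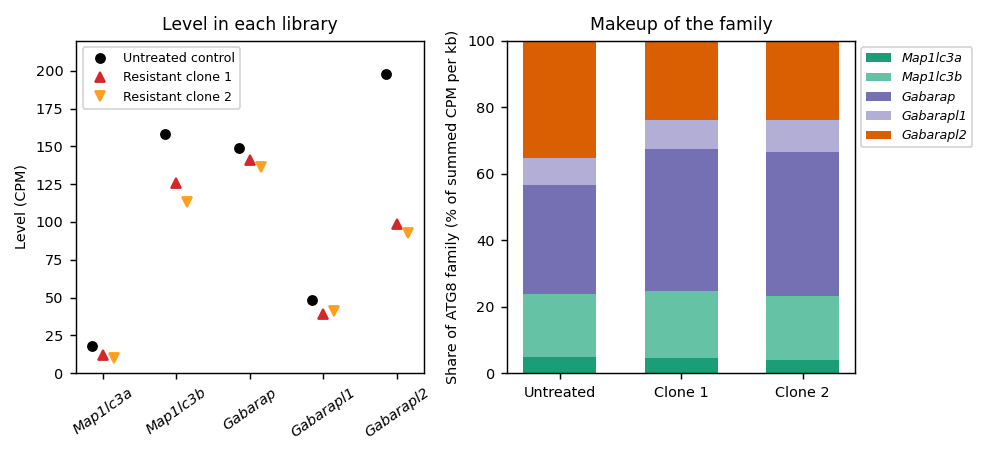
Left, level of the 5 ATG8 genes in CPM in the control and the 2 clones. Right, share of each gene in the family's summed CPM per kilobase of transcript, per library. Gabarapl2 goes from the largest share (35.4%) to 24.0% and 23.8%, and Gabarap becomes the largest in both clones.

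In the ULK complex, which receives signals from mTORC1 and AMPK, 1 gene of 5 rose and 2 fell. These are 20% and 40%, where 24.3% of all tested genes rose and 25.8% fell. Ulk1, the initiating kinase gene (chromosome 5, 110784488 to 110810097), rose from 44.9 CPM to 53.4 and 57.2 CPM (log2 fold change 0.30 ± 0.09, edgeR adjusted p = 0.00807). Its relative Ulk2 had 49.1, 45.7 and 47.2 CPM and did not pass. The ratio of Ulk1 to Ulk2 reads was 0.92 (0.81 to 1.03) in the control, 1.17 (1.04 to 1.32) in clone 1 and 1.21 (1.08 to 1.36) in clone 2. Rb1cc1, which encodes the scaffold FIP200, fell from 102 CPM to 75.0 and 70.3 CPM (log2 fold change -0.49 ± 0.07, edgeR adjusted p = 2.30e-05). Atg101, a small subunit that binds ATG13, fell from 38.8 CPM to 26.1 and 30.7 CPM (log2 fold change -0.45, edgeR adjusted p = 0.00268). Atg101 lies on chromosome 15, where the median log2 fold change of 550 tested genes was -0.28. Such medians were taken for chromosomes 7, 15, 18 and X only. The median was 0.41 on chromosome 18, which holds Atg12, and -0.22 on chromosome X, which holds Tfe3. Members on other chromosomes, among them Gabarapl2, Map1lc3b, Sqstm1 and Wipi1, have no such median beside them. Atg13, the regulatory subunit, had 49.2 CPM in the control and 44.3 and 42.4 CPM in the clones (edgeR adjusted p = 0.0905).

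Of the 5 genes of the lipid kinase complexes, 2 rose (40%, against 24.3% of all tested genes), 0 fell and 3 did not pass. Uvrag, the subunit that directs the kinase to late autophagosome and endosome steps, rose from 68.2 CPM to 90.5 and 89.0 CPM (log2 fold change 0.40 ± 0.07, edgeR adjusted p = 0.000207). Pik3c3, the catalytic subunit, rose from 47.5 CPM to 56.8 and 56.7 CPM (log2 fold change 0.26 ± 0.08, edgeR adjusted p = 0.015). Uvrag lies on chromosome 7 and Pik3c3 on chromosome 18. The 1069 tested genes of the former had a median log2 fold change of 0.26 and the 339 of the latter one of 0.41, and the part of this in the rise of Uvrag and Pik3c3 was not tested. Uvrag also carries a repeat of 345 bases that is at least 95% identical in transcripts of Mettl6, Klhl20 and Txndc16. Atg14, which directs the kinase to autophagosome formation in place of UVRAG, had 18.4, 19.0 and 18.8 CPM. Becn1, the Beclin 1 gene, had 140, 145 and 142 CPM, and Pik3r4, the regulatory kinase subunit VPS15, 54.5, 59.7 and 55.2 CPM. None of these 3 passed, with edgeR adjusted p between 0.47 and 0.833. The ratio of Atg14 to Uvrag reads was 0.27 (0.23 to 0.31) in the control and 0.21 in both clones (0.18 to 0.24 and 0.18 to 0.25).

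Among genes of membrane supply, 3 of 5 fell (60%, against 25.8% of all tested genes). Wipi1, which binds the phospholipid made by PIK3C3, fell from 237 CPM to 177 and 160 CPM (log2 fold change -0.49 ± 0.06, edgeR adjusted p = 7.28e-06). Wipi2, the relative that recruits the conjugation machinery, fell by less, from 213 CPM to 199 and 187 CPM (log2 fold change -0.15 ± 0.06, edgeR adjusted p = 0.0462). Wipi2 missed the threshold with RLE size factors, limma-voom, DESeq2, both preset variations and no low-count filter. The Wipi1 to Wipi2 read ratio went from 1.11 (1.06 to 1.18) to 0.89 (0.84 to 0.95) and 0.86 (0.81 to 0.92). Atg9a, the lipid scramblase of the seed vesicles, fell from 35.7 CPM to 30.2 and 28.2 CPM (log2 fold change -0.29, edgeR adjusted p = 0.0269). It shares exons with an overlapping transcript on its own strand and with Ankzf1 on the other. The lipid transfer genes did not pass: Atg2a had 48.0, 47.7 and 43.9 CPM and Atg2b 45.0, 46.9 and 47.4 CPM.

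Of the 6 genes of the conjugation system, 2 fell, 0 rose and 4 did not pass. The share that fell, 33.3%, was near the 25.8% of all tested genes. Atg5, whose protein is joined to ATG12 (chromosome 10, 44268358 to 44364291), fell from 101 CPM to 69.7 and 70.1 CPM. Its clones agree within counting error, and the log2 fold change was -0.53 ± 0.07 (edgeR adjusted p = 7.38e-06). Atg3, the enzyme that hands ATG8 proteins to lipid (chromosome 16, 45158785 to 45188538), fell from 40.6 CPM to 28.0 and 30.7 CPM (log2 fold change -0.47 ± 0.10, edgeR adjusted p = 0.00106). Atg7, the activating enzyme, had 27.5, 24.2 and 22.02 CPM (edgeR adjusted p = 0.084), and Atg12 had 98.2, 88.4 and 87.7 CPM (edgeR adjusted p = 0.0577). Atg4b, the protease that trims ATG8 proteins, had 74.4, 72.4 and 67.4 CPM. Atg16l1, which positions the conjugate on the membrane, had 69.0 CPM in the control, between 63.2 in clone 1 and 72.9 in clone 2. Of the promoters with an E-box, those of Atg5 and Atg3 shown above belong to genes that fell and that of Atg7 to one that did not pass. The shown pair was picked for holding an E-box and falling. Other genes that fell, Gabarapl2 and Wipi1 among them, had no E-box in their windows, and a link of motif and fall was not tested.

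The MiT/TFE transcription factor genes did not pass. Tfe3, the most abundant, had 46.0 CPM in the control and 47.2 and 44.9 CPM in the clones. Tfeb had 15.98, 13.6 and 15.8 CPM (log2 fold change -0.12 ± 0.15, edgeR adjusted p = 0.547). Mitf had 36 reads in the control, 19 in clone 1 and 32 in clone 2; its log2 fold change (-0.39 ± 0.37) was close to its SE in size. These factors are regulated largely by their location in the cell, which RNA levels do not show.

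Per kilobase of principal transcript, Sqstm1 was the most abundant of the 33 genes in each library, at 183 CPM per kilobase in the control and 236 and 237 in the clones. In the control it was followed by Gabarapl2 (118), Wipi1 (116), Gabarap (110) and Wipi2 (109). In both clones Gabarapl2 was in place 5, at 58.8 and 55.4 CPM per kilobase, behind Gabarap, Wipi2 and Wipi1. Mitf was the lowest, at 0.614 CPM per kilobase in the control. The order depends on the length used: with all annotated exons, Wipi2 moved from place 5 to place 10 in the control, while Sqstm1 and Gabarapl2 stayed in the first 2 places.

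The clones were compared with each other to show how far 2 resistant lines differ without regard to the control. With 1 library each there is no test. The CPM ratio of clone 2 to clone 1 ranged from 0.84 for Map1lc3a to 1.70 for Mitf, with a median of 0.98. Only Mitf, with its 19 and 32 reads, was past 1.25-fold, or 1 of 33 members against 17.8% of all tested genes. Its interval was 0.93 to 3.17. The 95% counting interval excluded 1 for 5 members, Map1lc3b, Atg101, Wipi1, Wipi2 and Atg16l1, and for 11.5% of all genes. Atg16l1 was 1.15 times as high in clone 2 (1.04 to 1.28) and Wipi1 0.91 times (0.85 to 0.97). For Atg16l1 this was the larger difference, since its clones lay on both sides of the control.

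**Figure D4:**
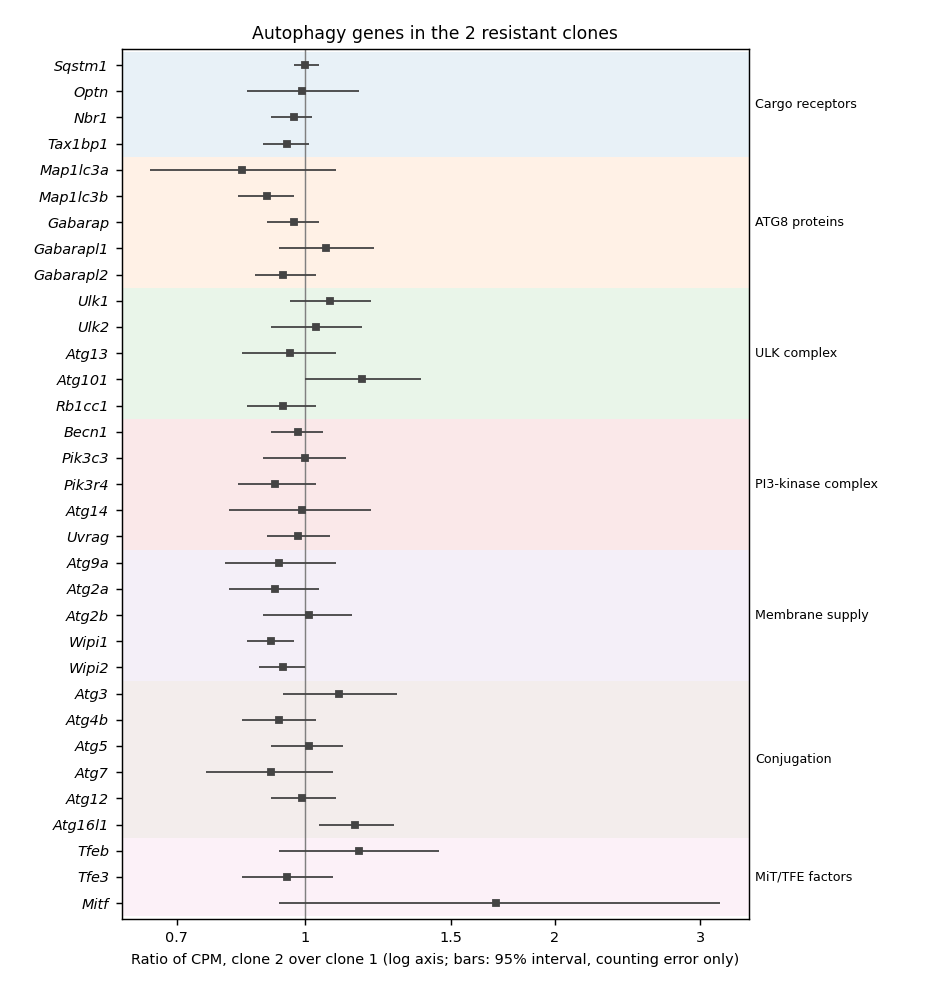
Ratio of CPM in clone 2 over clone 1 for each gene (rows, grouped by role) on a log axis, with 95% intervals that cover counting error only. Most intervals include 1, and the widest belongs to Mitf, with 19 and 32 reads.

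Other genes of the pathway were taken from 4 lists. Of 28 other machinery genes, 5 rose and 8 fell (46.4% called; median log2 fold change -0.02). Ykt6, a SNARE gene of autophagosome fusion, fell from 299 CPM to 214 and 208 CPM, and Sh3glb1, which encodes the Beclin 1 partner endophilin B1, from 73.4 to 48.8 and 49.2 CPM. Epg5, a tether of autophagosomes and lysosomes, rose from 46.8 to 75.7 and 74.3 CPM, and Vps16, a subunit of the HOPS tethering complex, from 58.6 to 87.6 and 88.1 CPM. Epg5 is on chromosome 18, whose median is given above. Of 20 tested genes for other receptors and mitophagy, 4 rose and 3 fell (35% called; median 0.03). Bnip3, a mitophagy receptor gene induced by low oxygen, rose from 128 to 201 and 181 CPM, and Phb2, an inner mitochondrial membrane receptor gene, from 177 to 242 and 259 CPM. Bnip3 is on chromosome 7, where the median log2 fold change was 0.26. Pink1, the kinase gene that starts ubiquitin-driven mitophagy, fell from 48.0 to 29.7 and 28.9 CPM, and Rtn3, an endoplasmic reticulum receptor gene, from 333 to 254 and 251 CPM.

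Of 35 genes of mTORC1, AMPK and their regulators, 11 rose and 10 fell (60% called; median -0.03). Deptor, which encodes an inhibitory partner of mTOR, fell from 131 CPM to 50.4 and 46.7 CPM (log2 fold change -1.43 ± 0.07, edgeR adjusted p = 1.37e-10). It is on chromosome 15, with its median of -0.28. Sesn3, a sestrin gene of amino acid and stress signalling, fell from 179 to 99.7 and 99.9 CPM, and the Rag GTPase gene Rragb from 24.0 to 10.2 and 11.0 CPM. Rragb is on chromosome X, where the median of 425 tested genes was -0.22. Stk11, which encodes the AMPK-activating kinase LKB1, rose from 130 to 182 CPM in both clones. The AMPK subunit genes of this list, given in the closing section, did not rise. Of 41 lysosome genes, 11 rose and 16 fell (65.9% called; median -0.03). The 4 called with the lowest p all fell: the proton pump genes Atp6v0a1 (240 to 123 and 113 CPM), Atp6v1b2 (384 to 241 and 238 CPM) and Atp6v0d1 (198 to 125 and 119 CPM), and Gusb, the beta-glucuronidase gene (128 to 79.1 and 79.4 CPM). Each list moved in both directions, and its share called is to be read against the 50.1% of all tested genes.

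**Figure D5:**
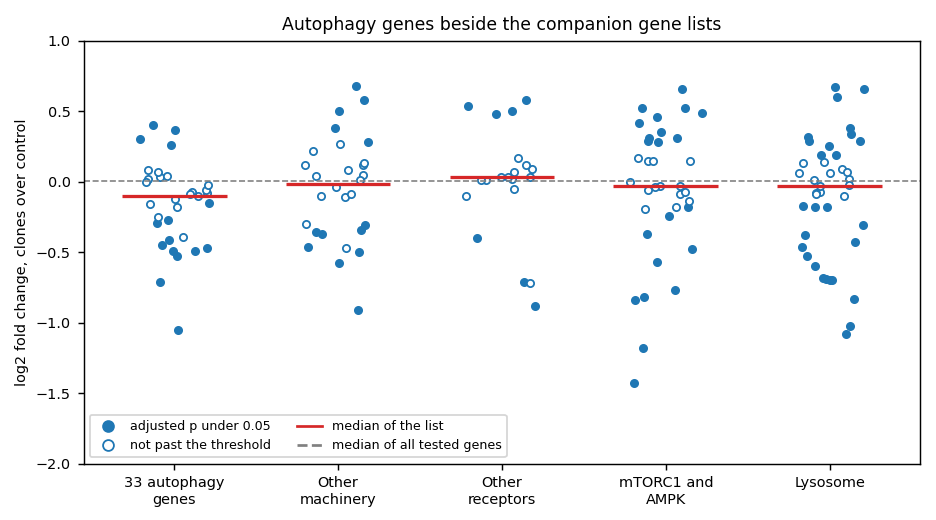
Log2 fold change of the clones over the control for the 33 genes and 4 companion lists (1 point per gene, spread sideways for visibility). Filled points passed an adjusted p of 0.05, red lines are list medians and the dashed line is the median of all tested genes. All 5 lists spread to both sides of 0, and the medians lie between -0.10 and 0.03.

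The authors' deposited table, made with DESeq2 from the same libraries, lists an adjusted p under 0.05 for 6 of the 33 genes, where 13.6% of its 20156 genes have one. In the authors' deposited table these were Sqstm1 (log2 fold change 0.36), Gabarapl2 (-1.06), Map1lc3b (-0.42), Wipi1 (-0.50), Rb1cc1 (-0.50) and Atg5 (-0.54). Uvrag has an adjusted p of 0.0592 in the authors' deposited table. The calls depended on the tool and the assumed spread. DESeq2 on the counts called 7 members, 2 higher and 5 lower, and 22.2% of all genes. These 7 were the 6 genes named from the authors' deposited table and Uvrag. With a preset biological variation of 10%, edgeR's likelihood ratio test called 5 members, all lower, and 26.4% of all genes (15.9% lower). They were Gabarapl2, Wipi1, Atg5, Rb1cc1 and Map1lc3a. At 20% Gabarapl2 alone was called, against 8.38% of all genes (7.24% lower). Without the low-count filter edgeR called 0 members and 0.0174% of all genes, while 13 members had an unadjusted p under 0.05. RLE size factors gave 14 members (47.8% of all genes), a mean CPM filter 16 (53.9%), the legacy fit 15 (48.8%), the robust fit 15 (49.7%) and limma-voom 14 (46.4%). Ulk1, Pik3c3, Gabarapl1, Atg101, Atg9a and Atg3 were each called under 5 of the 9 alternatives. They missed the threshold with DESeq2, both preset variations and no low-count filter. Map1lc3a was called under 6 of the 9 and missed it with DESeq2, the preset variation of 20% and no low-count filter.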

How the data were processed

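Messenger RNA of 3 NSC-34 libraries was prepared with a stranded kit, per the labels' protocols. The deposited raw counts are whole reads per gene made by STAR's gene counting on Gencode M16 (Ensembl 91) and GRCm38/mm10, per the file headers; the submitters' processing notes give STAR 2.5.3. How strand was treated is not stated in any source used here. The deposited RPM columns, reads relative to all mapped reads per the file headers, served only to check totals. The authors' log2 fold changes, their standard errors and p-values came from DESeq2, per the file headers.

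Low counts were removed with filterByExpr (13705 of 22976 genes stayed). The main test was edgeR 4.0.16's quasi-likelihood F test (legacy option off, TMM, two-sided, Benjamini-Hochberg over all tested genes, threshold 0.05) in R 4.3.3, with 1 residual degree of freedom moderated across genes. The SE is the log2 fold change over the square root of F. On data simulated for this comparison, it recovered 40%, 68%, 88% and 96% of 50 genes changed 1.25-, 1.5-, 2- and 4-fold, with 12 false calls, and made 1 call with no gene changed. In that test the control was given the clones' spread. Over 13962 genes the clones' counts differed by more than sampling noise (chi-square per degree of freedom 2.29), so they were counted as separate samples.

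Intervals are 95%, exact and for counting error only, as no source used here names molecular identifiers and PCR copies may count as reads. Depths of 11307034 to 11700755 counts set this precision: 3 counts were 0.256 to 0.265 CPM before TMM scaling. Positions and transcript lengths came from Gencode M21 (GRCm38), the principal transcript unless stated. Alternatives used DESeq2 1.42.0, limma 3.58.1 and others given in the closing section. The members and lists were chosen with earlier results of these data known. All members are named, and up to 4 called genes with the lowest p in each companion list; the further genes under the closing observations were picked with their values in view.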

Additional observations from a re-analysis of the deposited data

How the results depend on the processing

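All 33 members kept their direction under the 9 other normalizations, filters, tests and presets except Tfe3, whose log2 fold change of 0.00 became -0.01 with a mean CPM of at least 1 as the filter. RLE size factors, that filter, robust and legacy fits and limma-voom gave 14 to 16 called members. Atg12 was called in addition with the mean CPM filter. DESeq2 called 7 members (22.2% of all genes), 6 other machinery genes, 12 of mTORC1 and AMPK, 17 lysosome genes and 3037 of all genes. A preset variation of 10% left 5 members, 7 other machinery genes, 11 of mTORC1 and AMPK, 13 lysosome genes and 3617 of all genes, and one of 20% left 1, 0, 2, 1 and 1148, with 0 other receptor genes. At 20%, 1 machinery and 2 receptor genes had an unadjusted p under 0.05 in edgeR's likelihood ratio test. Without a low-count filter edgeR called 0 members, 0 machinery, 0 receptor, 0 mTORC1 and AMPK and 0 lysosome genes and 4 of all genes. In that fit 13, 14, 8, 20 and 21 of the list genes and 7087 of all genes had an unadjusted p under 0.05. No filter with the legacy fit, chosen after seeing the data, called 0 in each list and 0 of all genes (6560 unadjusted). The cause was not tested. The members' median log2 fold change stayed between -0.11 and -0.09 over the other settings with both clones, and was -0.12 without clone 1 and -0.10 without clone 2. Without clone 1, Nbr1 (-0.01), Atg16l1 (0.08) and Tfe3 (-0.03) were on the other side of 0. A left-out clone leaves no residual degree of freedom, so calls were not counted then. Off chromosomes 7, 15, 18 and X, 12 members were called (2 higher, 10 lower). The share of all tested genes called off these chromosomes was not computed, so that count has no background to be read against. No paired analysis was possible because the 2 groups share no replicate numbers in the labels. Depth limits Mitf most, with 19 to 36 reads.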

Other observations

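Several groups were noticed after their values were seen and are given as values. Of the 13 proton pump genes (Atp6 symbols) on the lysosome list, 10 fell (76.9%) and 0 rose, where 25.8% of all tested genes fell and 24.3% rose; their median was -0.38 (log2 fold change). The pump acidifies lysosomes and secretory vesicles. Atp6v1c1 went from 186 CPM in the control to 124 and 122 CPM in the clones and Atp6v1h from 195 to 135 and 133 CPM, while the accessory subunit gene Atp6ap1 had 746, 801 and 754 CPM and did not pass. Of the other 28 lysosome genes, 11 rose (39.3%) and 6 fell (21.4%), with a median of 0.07. Naglu, Sgsh and Hexa, which encode enzymes that break down glycans, rose from 39.0 to 66.1 and 58.4 CPM, from 20.1 to 33.4 and 30.0 CPM and from 98.3 to 123 and 122 CPM.

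The genes of the folliculin complex, which controls Rag GTPases and through them TFEB and TFE3, all rose: Flcn from 29.4 to 46.8 and 46.0 CPM, Fnip1 from 76.8 to 95.7 and 95.1 CPM and Fnip2 from 26.9 to 34.6 and 34.1 CPM. The tuberous sclerosis genes Tsc1 and Tsc2 rose as well, with log2 fold changes of 0.52 and 0.46. Tbc1d7, whose protein joins theirs in a complex, did not pass (log2 fold change 0.15, edgeR adjusted p = 0.468). On the mTORC1 and AMPK list that holds these genes 31.4% rose, against 24.3% of all tested genes, and 28.6% fell, against 25.8%. The AMPK subunit genes of that list went the other way. Prkaa1 (-0.48), Prkaa2 (-0.77), Prkab1 (-0.18), Prkag1 (-0.24) and Prkag2 (-0.82, all log2 fold changes) fell, and Prkab2 (-0.04) did not pass. Atg4a, a relative of the ATG8 protease Atg4b, fell from 16.4 to 9.35 and 8.09 CPM (log2 fold change -0.91, edgeR adjusted p = 0.000296), whereas Atg4d rose from 42.7 to 51.8 and 51.5 CPM. Retreg1, an endoplasmic reticulum autophagy receptor gene, fell from 9.74 to 4.54 and 6.02 CPM on 117 reads in the control. Atg4a is on chromosome X, where the median log2 fold change of all tested genes was -0.22. Retreg1, Atp6v1c1, Prkaa1 and Prkag1 are on chromosome 15, where that median was -0.28.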
